A study of Mus musculus with 8 samples.

Results

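Known NF-kB targets and inflammatory mediators, 8 genes in all, were followed in the small intestine of hypoxic mice: Tnf, Il1b, Ccl2, Cxcl1, Nfkbia, Tnfaip3, Icam1 and Ptgs2. They were found by gene name in the table of read counts, and each of the 8 names matched 1 of its 55421 genes. The count table holds 8 RNA sequencing libraries of total RNA from small intestine of wild-type (WT) mice, 4 labelled Hypoxia+Nitrate and 4 labelled Hypoxia. Mice of both groups were kept at 7% oxygen for 7 days, and the Hypoxia+Nitrate mice also received 4 mM nitrate. The comparison asks which of these genes differed when nitrate, a dietary source of nitric oxide, was given during hypoxia. The labels used here name no strain, age or route of the nitrate. Nor do they state whether the samples are separate animals; the p-values thus rest on differences among libraries of unknown, possibly technical, origin.

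NF-kB is a family of transcription factors held in the cytoplasm by IkB proteins. Signals from TNF, interleukin-1 or microbial products activate the IKK kinase complex, which marks IkB for destruction, and the freed dimers enter the nucleus and switch on cytokines, chemokines and adhesion molecules. The same factors switch on their own brakes, such as the IkB protein encoded by Nfkbia and the ubiquitin-editing enzyme A20 encoded by Tnfaip3. In the gut the pathway is known for defence against microbes and for inflammation of the mucosa.

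The kappaB consensus, the 10-letter site bound by NF-kB dimers, was searched on both strands of RefSeq promoters (build GRCm38.p6). They reach from 250 bases before to 50 bases after a gene's start in RefSeq, which is the start site meant here. Promoters of 7 of the 8 genes were in the table, and Ccl2 was not matched. The consensus was found in the promoters of Nfkbia, Tnfaip3 and Cxcl1, 3 of the 7 genes, and in 8.46% of all 32851 promoters. The last 150 bases before the start site of these 3 genes are printed, because all carry this motif. In the test given below the brake Nfkbia rose, the chemokine Cxcl1 fell and Tnfaip3 did not pass. Whether the motif bears on these results was not tested, and the counts of Cxcl1 were near or below the background described below. Capitals mark the motif.
Nfkbia, chr12:55492648-55492797, minus strand: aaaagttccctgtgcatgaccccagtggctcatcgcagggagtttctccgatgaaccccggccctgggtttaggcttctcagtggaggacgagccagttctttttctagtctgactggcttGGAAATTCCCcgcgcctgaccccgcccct
Tnfaip3, chr10:19015411-19015560, minus strand: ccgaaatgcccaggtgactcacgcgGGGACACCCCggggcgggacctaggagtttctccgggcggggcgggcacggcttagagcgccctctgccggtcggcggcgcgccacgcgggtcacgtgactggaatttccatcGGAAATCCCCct
Cxcl1, chr5:90891095-90891244, plus strand: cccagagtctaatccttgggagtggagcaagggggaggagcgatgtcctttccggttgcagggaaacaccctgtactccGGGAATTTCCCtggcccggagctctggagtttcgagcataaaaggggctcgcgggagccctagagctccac
The motif lay 29 to 20 bases before the start site of Nfkbia, on the strand opposite to the gene. In Tnfaip3 it lay at 125 to 116 bases, where it read on both strands, and at 12 to 3 bases before the RefSeq start. That start lies inside the gene span given below for Tnfaip3, 19000910 to 19015657, and so do the printed stretch and its motifs. In Cxcl1 a pair of matches on opposite strands overlapped between 71 and 61 bases before the start. The TATA box letters TATAAA began 29 bases before the start of Tnf and 31 bases before that of Il1b. They were also found in Tnfaip3 and, after the RefSeq start, in Nfkbia (on the opposite strand) and Icam1. This makes 5 of the 7 genes, against 13.6% of all promoters. In Icam1 they lie before the start of the gene span given below, 21015985. The AP-1 letters TGANTCA were found in Tnfaip3 alone among the 7 genes, at 136 to 130 bases before the start and without overlap with the kappaB motif, and in 7.81% of all promoters. A match describes the sequence and is not a measured binding site.

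The libraries differed in more than treatment. Total counts were between 8662279 and 63943036 in Hypoxia+Nitrate and between 5345377 and 21835865 in Hypoxia. Genes of odorant, vomeronasal and trace-amine receptors, assumed to be silent in gut, gave the background of each library, in counts per kb of exon. The background expected from them came to 2.75% to 23.2% of nuclear protein-coding counts in Hypoxia+Nitrate and 39.2% to 63.8% in Hypoxia. Protein-coding genes of the mitochondrial genome held 64.0%, 7.31%, 6.90% and 49.3% of counts in Hypoxia+Nitrate 1 to 4 and 0.423% to 1.06% in Hypoxia. The genes Gm26917, Gm42418, AY036118 and CT010467.1, known to collect reads of ribosomal DNA, held 2.33%, 22%, 4.95% and 3.42% of counts in Hypoxia+Nitrate 1 to 4 and 75.7%, 73.7%, 7.06% and 45% in Hypoxia 1 to 4. Among markers of the labelled tissue, all 10 enterocyte genes on the list were called higher, with a median log2 fold change of 5.69. All 10 had counts in every library, but in each Hypoxia library 99% to 99.6% of the receptor genes had counts too. Against the background these 10 genes were at 0.857 (Sis) to 54.4 times (Apoa1) in Hypoxia and 36.9 (Cdh1) to 16200 times (Fabp2) in Hypoxia+Nitrate. Their summed level in CPM, the count relative to a library size scaled by TMM, was between 1010 and 34600 in Hypoxia+Nitrate and between 56.9 and 586 in Hypoxia. Of the 10, 0, 6, 2 and 1 were called when Hypoxia 1, 2, 3 or 4 was left out, 5 with library size alone (median 3.8) and 2 without Hypoxia+Nitrate 1 and 4 (median 1.9). The enterocyte markers, the mitochondrial and ribosomal shares and the background moved with the group in all results that follow, and, beyond the fits after background subtraction, their part was not tested.

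Nfkbia and Ccl2 rose and Cxcl1 fell in Hypoxia+Nitrate relative to Hypoxia, and the other 5 genes did not pass. Calls are at an adjusted p of 0.05 in edgeR's quasi-likelihood test, fitted and Benjamini-Hochberg adjusted over all genes. Thus 2 of 8 genes were called higher, where 11.7% of the 35431 genes tested were higher, and 1 of 8 was called lower, where 12.7% were lower. The median log2 fold change was -0.91 over the 8 genes and -0.58 over all genes tested. All 8 genes passed the filter on low counts. With TMM scaling every Hypoxia+Nitrate level lay above every Hypoxia level for Nfkbia alone, against 12.0% of all genes. It lay below for Tnf, Cxcl1 and Ptgs2, against 28.8% of all genes. In whole tissue, fewer cells of a type and less RNA per cell cannot be told apart. With other scalings the median of all genes moved to -0.87 (RLE), -0.94 (upper quartile) and -1.07 (library size), so fold changes are relative to that shift.

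**Figure D1:**
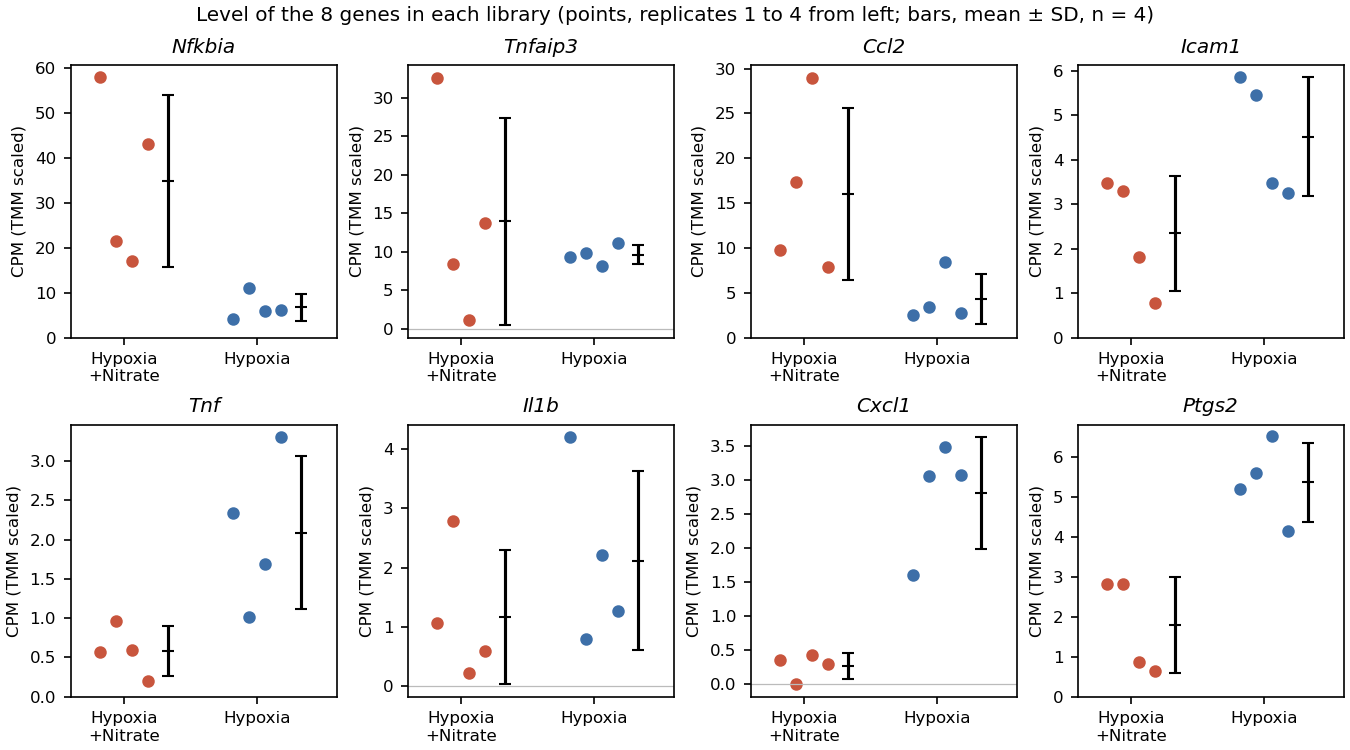
Level of each of the 8 genes in CPM (TMM scaled) in Hypoxia+Nitrate and Hypoxia libraries, with points for replicates 1 to 4 from left to right and bars for the mean and SD (n = 4). Nfkbia is at 17.1 to 58.0 CPM in Hypoxia+Nitrate and at 4.07 to 11.1 CPM in Hypoxia, while Cxcl1 is at 0 to 0.435 CPM in Hypoxia+Nitrate and at 1.6 to 3.48 CPM in Hypoxia.

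Of the cytokines, Tnf (ENSMUSG00000024401, chromosome 17, 35199381 to 35202007, GRCm38, minus strand) encodes tumour necrosis factor, an early ligand that starts NF-kB signalling. Its counts were 8, 17, 11 and 4 in Hypoxia+Nitrate 1 to 4, against 35, 14, 32 and 55 in Hypoxia 1 to 4. On the CPM scale these were 0.568, 0.967, 0.599 and 0.195 in Hypoxia+Nitrate and 2.34, 1.02, 1.69 and 3.31 in Hypoxia. With TMM scaling the groups did not overlap, with Hypoxia+Nitrate 2 at 0.967 just under Hypoxia 2 at 1.02. By total counts alone they overlapped, with Hypoxia+Nitrate 2 and 3 at 1.59 and 1.27 CPM and Hypoxia 2 at 0.641 CPM. The log2 fold change of -1.83 (SE 0.834) did not pass in edgeR (adjusted p = 0.123). Tnf was called lower by DESeq2 (-2.13, adjusted p = 0.0138) and without Hypoxia+Nitrate 2 (-2.16, edgeR adjusted p = 0.0322). In these fits 28.3% and 39.5% of all genes tested were called lower.

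Il1b (ENSMUSG00000027398, chromosome 2, 129364570 to 129371139, minus strand) encodes interleukin-1 beta, a cytokine made as an inactive precursor and cut by caspase-1. Its counts were 15, 49, 4 and 12 in Hypoxia+Nitrate 1 to 4, against 63, 11, 42 and 21 in Hypoxia 1 to 4. The level was 1.16 ± 1.14 CPM in Hypoxia+Nitrate and 2.12 ± 1.51 CPM in Hypoxia (mean ± SD, n = 4 each). The groups overlapped widely, since the highest Hypoxia+Nitrate library, at 2.79 CPM, exceeded 3 of the 4 Hypoxia libraries. The log2 fold change of -0.86 (SE 0.948) did not pass (adjusted p = 0.5), nor did it in any of 18 alternatives. Of its exonic sequence 25 bases are shared with Il1bos on the other strand.

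Ccl2 (ENSMUSG00000035385, chromosome 11, 82035571 to 82037453, plus strand) encodes the chemokine that draws monocytes through the receptor CCR2. Its counts were 138, 306, 533 and 161 in Hypoxia+Nitrate 1 to 4, against 37, 47, 159 and 45 in Hypoxia 1 to 4. Those counts correspond to 9.80, 17.4, 29.0 and 7.85 CPM in Hypoxia+Nitrate and to 2.47, 3.42, 8.38 and 2.71 CPM in Hypoxia. Hypoxia 3 stood above the other Hypoxia libraries and above Hypoxia+Nitrate 4, so the groups overlapped at that point. Ccl2 rose 3.76-fold, a log2 fold change of 1.91 (SE 0.578, adjusted p = 0.0353). The call was lost when Hypoxia 1, 2 or 4 was left out (adjusted p = 0.113, 0.0926 and 0.0842) or Hypoxia 1 and 2 together (0.211), with upper-quartile factors (0.0781) and with nuclear protein-coding genes alone (0.0602). With library size alone (log2 fold change 1.27, adjusted p = 0.569) and after background subtraction (0.94, SE 1.07, limma-voom adjusted p = 0.558) Ccl2 did not pass either.

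Cxcl1 (ENSMUSG00000029380, chromosome 5, 90891241 to 90893115, plus strand) encodes a chemokine that draws neutrophils through the receptor CXCR2. Its counts were 5, 0, 8 and 6 in Hypoxia+Nitrate 1 to 4, against 24, 42, 66 and 51 in Hypoxia 1 to 4. The level was 0.355, 0, 0.435 and 0.293 CPM in Hypoxia+Nitrate and 1.6, 3.06, 3.48 and 3.07 CPM in Hypoxia. All Hypoxia+Nitrate libraries were below all Hypoxia libraries, and the count of 0 in Hypoxia+Nitrate 2 allows a level of up to 0.171 CPM (3 counts, counting error only). Cxcl1 fell 10.1-fold, a log2 fold change of -3.34 (SE 1.04, adjusted p = 0.0387), and its fold change was the largest of the 8 in size in this fit. The call was lost when any Hypoxia library was left out (adjusted p = 0.0854, 0.0901, 0.104 and 0.109 for replicates 1 to 4) or the first 2 together (0.195). It was also lost without Hypoxia+Nitrate 4 (0.0597), without Hypoxia+Nitrate 1 and 4 together (0.0555) and with library size alone (0.214). Cxcl1 had too few counts left to be tested once the background was subtracted.

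Among the brakes, Nfkbia (ENSMUSG00000021025, chromosome 12, 55489410 to 55492647, minus strand) encodes IkB-alpha, which holds NF-kB in the cytoplasm and is itself made on NF-kB activation. Its counts were 816, 378, 314 and 885 in Hypoxia+Nitrate 1 to 4, against 61, 153, 112 and 102 in Hypoxia 1 to 4. On the CPM scale it was at 58.0, 21.5, 17.1 and 43.2 in Hypoxia+Nitrate and at 4.07, 11.1, 5.90 and 6.14 in Hypoxia. With TMM scaling the lowest Hypoxia+Nitrate library was above the highest Hypoxia library. By total counts alone the groups overlapped, with Hypoxia+Nitrate 1 and 4 at 12.8 and 17.0 CPM and Hypoxia 3 at 21 CPM. Nfkbia rose 5.13-fold, a log2 fold change of 2.36 (SE 0.530, adjusted p = 0.0123). The call was lost without Hypoxia 1 (2.17, adjusted p = 0.0573) and without Hypoxia 1 and 2 (2.72, 0.0659). With library size alone the log2 fold change was 1.24 (adjusted p = 0.519), and after background subtraction it was 1.24 (SE 0.637, limma-voom adjusted p = 0.204).

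Tnfaip3 (ENSMUSG00000019850, chromosome 10, 19000910 to 19015657, minus strand) encodes A20, which removes activating ubiquitin chains from signalling proteins upstream of IKK. Its counts were 459, 147, 21 and 281 in Hypoxia+Nitrate 1 to 4, against 139, 135, 156 and 186 in Hypoxia 1 to 4. Levels ran from 1.14 CPM in Hypoxia+Nitrate 3 to 32.6 CPM in Hypoxia+Nitrate 1, a range that encloses all Hypoxia libraries, which were at 8.22 to 11.2 CPM. The mean was 14.0 ± 13.5 CPM in Hypoxia+Nitrate and 9.63 ± 1.24 CPM in Hypoxia (SD, n = 4 each). The log2 fold change of 0.53 (SE 0.725) did not pass (adjusted p = 0.589), and its sign turned with library size alone (-1.16) and without Hypoxia+Nitrate 1 (-0.30).

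With TMM scaling both brakes had their highest levels in Hypoxia+Nitrate 1 and 4, where mitochondrial counts were also highest, whereas Ccl2 had its highest levels in Hypoxia+Nitrate 2 and 3. That order of the brakes depends on the scaling. By total counts alone Nfkbia was at 12.8, 35.3, 36.2 and 17.0 CPM and Tnfaip3 at 7.18, 13.7, 2.42 and 5.38 CPM in Hypoxia+Nitrate 1 to 4. The count of Nfkbia over that of Ccl2 in the same library, which no scaling changes, was 5.91, 1.24, 0.589 and 5.50 in Hypoxia+Nitrate 1 to 4.

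Of the effectors, Icam1 (ENSMUSG00000037405, chromosome 9, 21015985 to 21028817, plus strand) encodes an adhesion molecule that leukocyte integrins bind. Its counts were 49, 58, 33 and 16 in Hypoxia+Nitrate 1 to 4, against 88, 75, 66 and 54 in Hypoxia 1 to 4. The level was 2.34 ± 1.28 CPM in Hypoxia+Nitrate and 4.52 ± 1.34 CPM in Hypoxia (SD, n = 4 each). Hypoxia+Nitrate 1 and 2, at 3.48 and 3.30 CPM, lay beside Hypoxia 3 and 4, at 3.48 and 3.25 CPM, so the groups overlapped. The log2 fold change of -0.95 (SE 0.652) did not pass (adjusted p = 0.283), nor did it in any of 18 alternatives. Of its 4360 exonic bases 511 are shared with Gm47079 on the other strand, and the strand setting of the counting is not given, so its counts are uncertain to that extent.

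Ptgs2 (ENSMUSG00000032487, chromosome 1, 150100031 to 150108227, plus strand) encodes cyclooxygenase-2, the inducible enzyme of prostaglandin synthesis. Its counts were 40, 50, 16 and 13 in Hypoxia+Nitrate 1 to 4, against 78, 77, 124 and 69 in Hypoxia 1 to 4. The level was 2.84, 2.84, 0.871 and 0.634 CPM in Hypoxia+Nitrate and 5.21, 5.60, 6.53 and 4.16 CPM in Hypoxia. With TMM scaling all Hypoxia+Nitrate libraries were below all Hypoxia libraries. By total counts alone the groups overlapped, with Hypoxia+Nitrate 2 at 4.67 CPM and Hypoxia 1 and 2 at 3.92 and 3.53 CPM. The log2 fold change of -1.58 (SE 0.671) did not pass in edgeR (adjusted p = 0.103). Ptgs2 was called lower by DESeq2 (-1.81, adjusted p = 0.0151), by limma-voom (-1.93, 0.0307) and without Hypoxia+Nitrate 2 (-1.87, edgeR 0.0322). In these fits 28.3%, 33.7% and 39.5% of all genes tested were called lower.

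**Figure D2:**
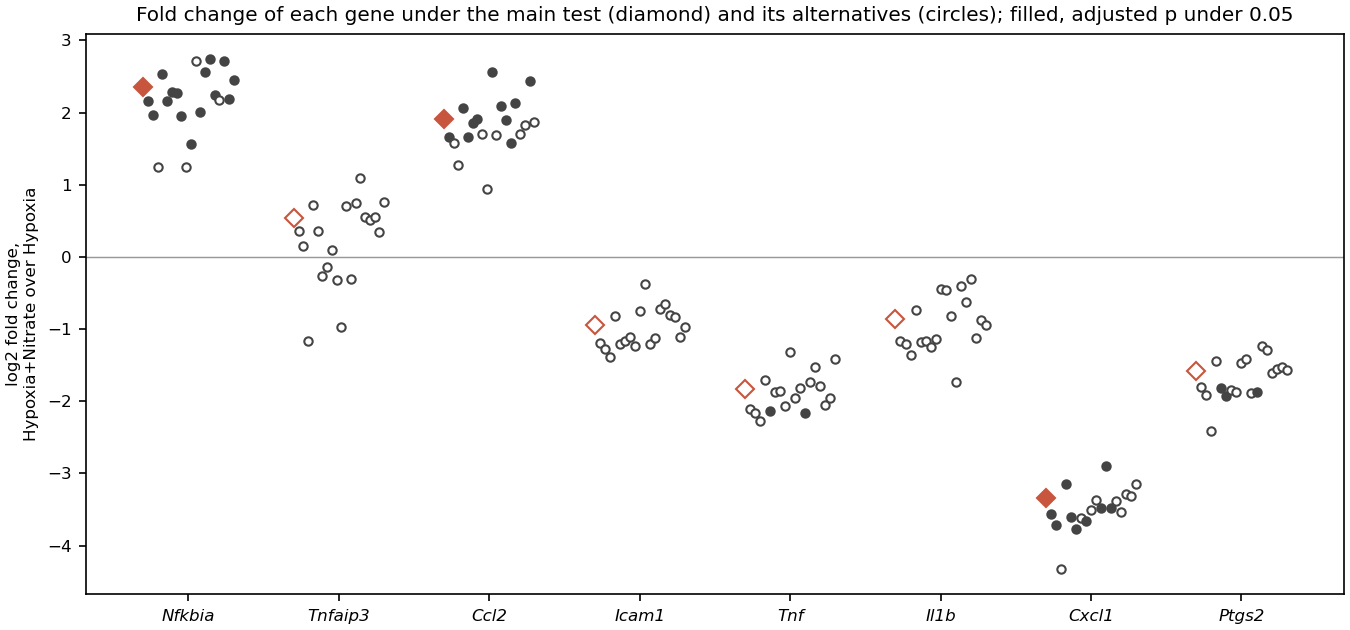
Log2 fold change, Hypoxia+Nitrate over Hypoxia, of each of the 8 genes in the edgeR test over all samples (diamond) and in its alternatives (circles), filled where the adjusted p was under 0.05. Nfkbia stays between 1.24 and 2.74 and Cxcl1 between -4.32 and -2.90, while Tnfaip3 lies on both sides of 0.

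Only Nfkbia and Ccl2 of the 8 genes held more counts than the receptor background in every library. Their counts summed over a group were 46.1 and 31.0 times the expected background in Hypoxia+Nitrate and 3.91 and 3.72 times in Hypoxia. By library, Nfkbia was at 171, 18.5, 16.5 and 115 times the background in Hypoxia+Nitrate 1 to 4, against 2.09, 7.90, 3.36 and 3.71 times in Hypoxia 1 to 4. Ccl2 was at 41.0, 21.2, 39.5 and 29.7 times in Hypoxia+Nitrate, against 1.79, 3.43, 6.74 and 2.31 times in Hypoxia. For both genes this ratio did not overlap between the groups, although Ccl2 overlapped in CPM. Its denominator differs between the groups, at 2.96 to 12.7 counts per kb in Hypoxia+Nitrate and 12 to 20.7 in Hypoxia. The share of all genes without overlap in this ratio was not counted. In Hypoxia 1, 8.49% of the 1472 receptor genes had as many counts per kb as Nfkbia and 14.1% as many as Ccl2.

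Tnfaip3 was above the background in some libraries of Hypoxia+Nitrate, at 21.5, 1.6, 0.245 and 8.17 times in replicates 1 to 4, and at 1.04 to 1.55 times in Hypoxia. The group sums of the other 5 genes were between 0.314 and 1.32 times the background in Hypoxia+Nitrate and between 1.07 and 1.44 times in Hypoxia. Cxcl1, called lower, was at 0.902, 0, 0.360 and 0.672 times the background in Hypoxia+Nitrate 1 to 4 and at 0.706, 1.86, 1.70 and 1.59 times in Hypoxia 1 to 4. Between 12.6% and 69.4% of the receptor genes had at least as many counts per kb as Cxcl1 in a Hypoxia library. Single Hypoxia libraries of Cxcl1, Tnf, Il1b, Icam1 and Ptgs2 were at 0.486 to 1.96 times the background, so expression above it was not shown at this depth. In Hypoxia+Nitrate the highest value among them was 4.30 times, for Icam1 in replicate 1.

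**Figure D3:**
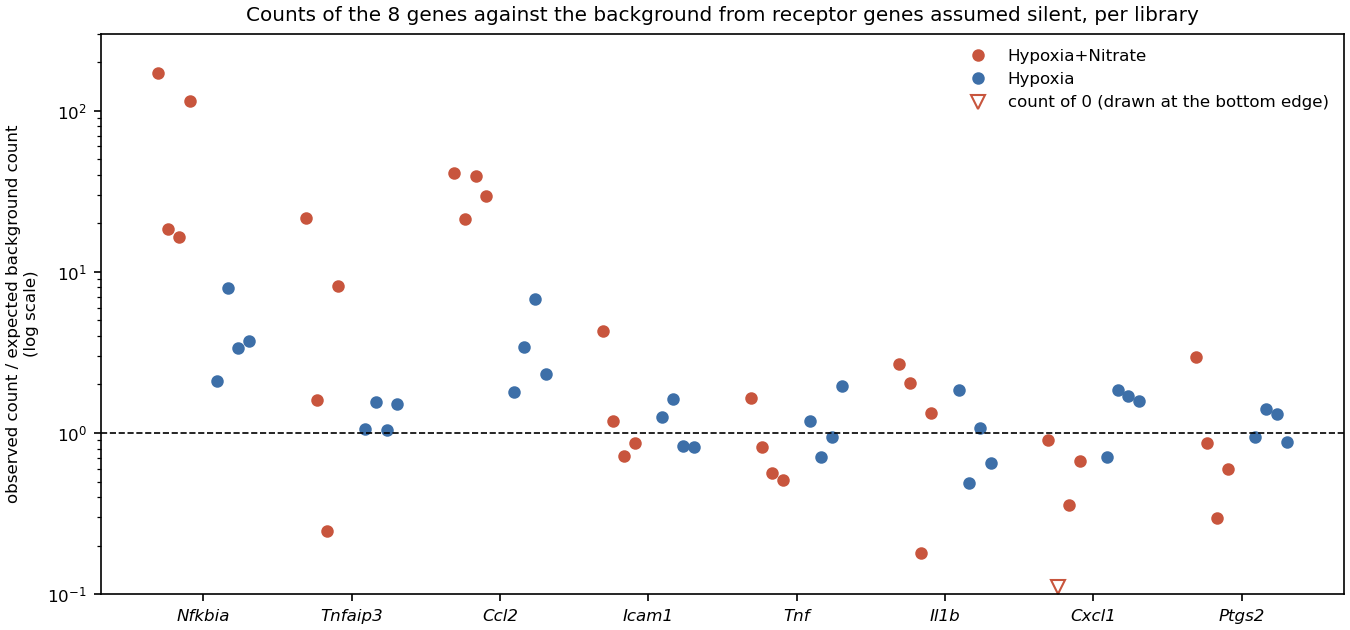
Observed count over the count expected from receptor genes assumed silent, per library, on a log axis, for the 8 genes in Hypoxia+Nitrate and Hypoxia; the dashed line marks a ratio of 1 and the open triangle a count of 0. Nfkbia and Ccl2 are at 16.5 or more in Hypoxia+Nitrate and at 7.90 or less in Hypoxia, while Tnf, Il1b, Icam1, Cxcl1 and Ptgs2 scatter around 1.

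Per kb of exon, the order of the levels in Hypoxia+Nitrate was Nfkbia at 21.7 ± 11.9, Ccl2 at 14.1 ± 8.43, Tnfaip3 at 1.93 ± 1.86, Il1b at 0.610 ± 0.595, Icam1 at 0.536 ± 0.294, Ptgs2 at 0.392 ± 0.264, Tnf at 0.355 ± 0.192 and Cxcl1 at 0.144 ± 0.101 CPM per kb (SD, n = 4). Nfkbia and Ccl2 overlapped each other, but the lowest Ccl2 library, at 6.90, was above the highest Tnfaip3 library, at 4.51 CPM per kb. From Tnfaip3 down, each gene overlapped its neighbours. In Hypoxia the order began with Nfkbia at 4.23 ± 1.88 and Ccl2 at 3.73 ± 2.45 CPM per kb. Nfkbia and Ccl2 again overlapped each other. The other 6 genes followed between 1.49 (Cxcl1) and 1.04 (Icam1) CPM per kb. The lowest Ccl2 library, at 2.17, was above the highest Cxcl1 library, at 1.85 CPM per kb, but under the highest Il1b library, at 2.21 CPM per kb. From Cxcl1 down each gene overlapped its neighbours.

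Ratios between genes of the same library, which are free of the scaling, separated Nfkbia and Ccl2 from Icam1 and Ptgs2. Of the 8 genes 5 had at least 10 counts in every library, which gives 10 pairs. The Nfkbia count was 16.7, 6.52, 9.52 and 55.3 times the Icam1 count in Hypoxia+Nitrate 1 to 4, against 0.693, 2.04, 1.70 and 1.89 times in Hypoxia 1 to 4. The Ccl2 count was 3.45, 6.12, 33.3 and 12.4 times the Ptgs2 count in Hypoxia+Nitrate, against 0.474, 0.610, 1.28 and 0.652 times in Hypoxia. Neither ratio overlapped between the groups. The mean log2 ratio was higher in Hypoxia+Nitrate by 3.41 for Nfkbia to Icam1, 4.15 for Nfkbia to Ptgs2, 3.04 for Ccl2 to Icam1 and 3.78 for Ccl2 to Ptgs2.

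The log2 ratio of Nfkbia to Tnfaip3, the brakes of the pathway, was 1.94 ± 1.35 in Hypoxia+Nitrate and -0.59 ± 0.589 in Hypoxia (SD, n = 4 each). That of Icam1 to Ptgs2 was 0.46 ± 0.390 in Hypoxia+Nitrate and -0.28 ± 0.471 in Hypoxia. These 6 pairs each reached p = 0.0286 in a 2-sided exact permutation test, the smallest that 4 against 4 samples can give, or 0.0477 after Benjamini-Hochberg adjustment over the 10 pairs. The other 4 pairs overlapped and did not pass, among them Nfkbia to Ccl2, with a difference of 0.37 (adjusted p = 0.743, exact permutation test). With any 1 library left out none of the 6 pairs passed (adjusted p = 0.0571 to 0.107, exact permutation tests), and all 48 differences stayed positive. Counts that come from background enter these ratios too, and the background was higher per kb in most Hypoxia libraries than in most Hypoxia+Nitrate libraries, at 2.96, 12.7, 11.8 and 4.76 counts per kb in Hypoxia+Nitrate 1 to 4 and 18.1, 12.0, 20.7 and 17.1 in Hypoxia 1 to 4. That part was not tested. Icam1 and Ptgs2 were themselves near the background, at 1.26 and 0.806 times in Hypoxia+Nitrate and 1.08 and 1.12 times in Hypoxia. The 10 pairs share 5 genes and are not independent. The share of all pairs of genes without overlap between the groups was not counted.

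**Figure D4:**
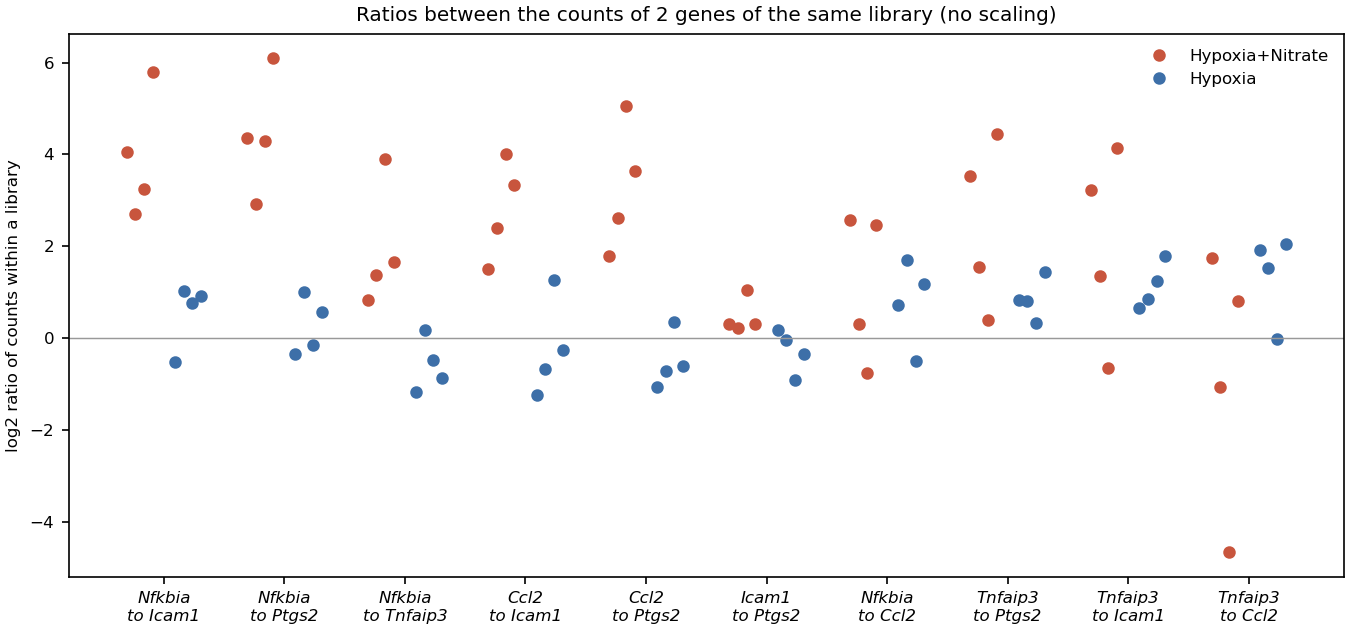
Log2 ratio of the counts of 2 genes within each library for the 10 pairs of genes with at least 10 counts in every library, in Hypoxia+Nitrate and Hypoxia. The first 6 pairs from the left do not overlap between the groups, and the 4 pairs to their right do.

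Other genes of the pathway were taken from 9 lists, whose counts in the main test stand against 11.7% of all genes tested called higher and 12.7% called lower. These shares differ in the alternatives. Without Hypoxia+Nitrate 2 they were 14.3% higher and 39.5% lower, and with library size alone 0.686% and 4.39%. Without any 1 Hypoxia library they were 1.95% to 7.06% higher and 3.61% to 8.46% lower. Of 5 NF-kB subunits, 1 rose and 0 fell, with a median log2 fold change of 1.04, or 0.04 with library size alone. With library size alone, without Hypoxia+Nitrate 4 or without any 1 Hypoxia library 0 of the 5 were called. Rela, the activating p65 subunit, was at 32 ± 26.6 CPM in Hypoxia+Nitrate and 6 ± 1.72 CPM in Hypoxia (SD, n = 4 each), a log2 fold change of 2.42 (SE 0.661, adjusted p = 0.0247). Its partner subunits did not pass, with Relb at 1.88 (adjusted p = 0.0703), Nfkb1 at 1.04 (0.104), Nfkb2 at 0.98 (0.128) and Rel at -0.49 (0.340).

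Of 13 IkB proteins and other brakes, 3 rose and 0 fell. Zfp36, which destabilises cytokine mRNAs, averaged 112 CPM in Hypoxia+Nitrate and 10.9 CPM in Hypoxia, a log2 fold change of 3.37 (SE 0.735, adjusted p = 0.0112). Tnip1, a partner of A20, rose by 3.79 (SE 0.918) and Tollip, an inhibitor of interleukin-1 and Toll-like receptor signalling, by 2.96 (SE 0.728). The list's median was 1.03 with TMM and -0.04 with library size alone. The 3 calls became 0 with library size alone and without Hypoxia 1, 1 without Hypoxia 3 or Hypoxia 4, 6 without Hypoxia+Nitrate 2 and 7 without Hypoxia+Nitrate 3. Of 17 genes of signalling from receptor to IKK, 8 rose and 0 fell, with a median of 1.48, or 0.28 with library size alone. The 8 calls became 4 with RLE or upper-quartile factors, 0 with library size alone, 5 without Hypoxia+Nitrate 1 and 2 without Hypoxia+Nitrate 4. They became 2 without Hypoxia 2 and 0 without Hypoxia 1, 3 or 4. Without Hypoxia+Nitrate 1 and 4 together 3 were called higher and 1 lower, with a median of 0.56. Chuk, which encodes the kinase IKK-alpha, rose by 2.74 (SE 0.665), and Tradd, an adaptor of TNF receptor 1, by 3.63 (SE 0.993). Tradd was at 48.5, 4.49, 3.1 and 90.1 CPM in Hypoxia+Nitrate 1 to 4 and overlapped Hypoxia, at 1.87 to 4.64 CPM. Rbck1, part of the linear ubiquitin ligase, rose by 2.96, and Tab2, an adaptor of the kinase TAK1, by 2.20.

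The receptors that start the pathway split. Tnfrsf1a, TNF receptor 1, averaged 66.6 ± 56.5 CPM in Hypoxia+Nitrate and 5.38 ± 0.707 CPM in Hypoxia, and rose by 3.63 (SE 0.725, adjusted p = 0.00921). Ltbr, the lymphotoxin beta receptor, rose by 3.33 (SE 0.726). Tlr4, the receptor for bacterial lipopolysaccharide, fell by 2.45 on the log2 scale, with counts at 0.374 times the expected background in Hypoxia+Nitrate and 0.916 times in Hypoxia. Over the 11 receptors 2 rose and 1 fell, with a median of -1.19. The 2 higher calls became 1 without Hypoxia 1 and 0 with library size alone. The lower call was lost there and without any 1 Hypoxia library. It became 3 with RLE (17% of all genes tested lower) or upper-quartile factors (15.3%). Without Hypoxia+Nitrate 2 it became 4 (39.5% of all genes) and without Hypoxia+Nitrate 3 it became 2 (22%). The interleukin-1 receptor genes Il1r1 and Il1rap were at -1.44 (adjusted p = 0.0678) and -1.37 (0.0614) and did not pass.

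Genes that mature interleukin-1 beta and release it or TNF rose for 3 of 8 and fell for 0. Casp1, the protease that cuts the precursor, averaged 27.4 ± 29.1 CPM in Hypoxia+Nitrate and 2.08 ± 0.269 CPM in Hypoxia, a log2 fold change of 3.71 (SE 0.787, adjusted p = 0.0103). Pycard, the inflammasome adaptor, rose by 2.40, and Gsdmd, the pore through which the cytokine leaves, by 5.20 (SE 1.32). Gsdmd was at 264, 10.8, 6.31 and 466 CPM in Hypoxia+Nitrate 1 to 4 and overlapped Hypoxia, at 2.4 to 10 CPM. Nlrp3, an inflammasome sensor, was at -2.19 (adjusted p = 0.208), with no count in 2 Hypoxia+Nitrate libraries. The list's median was 0.65 with TMM and -0.13 with library size alone. The 3 calls became 0 with library size alone or without Hypoxia 1, and 1 without Hypoxia 3 or Hypoxia 4.

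Receptors and partners of the products of the 8 genes were lower for 3 of 12 and higher for 0, with a median of -1.95 against -0.58 for all genes tested. The 3 calls became 0 with library size alone and 1 without any 1 Hypoxia library. They became 6 without Hypoxia+Nitrate 2, where 39.5% of all genes tested were called lower. Cxcr2, the receptor for the product of Cxcl1, had no count in 3 of 4 Hypoxia+Nitrate libraries and averaged 0.114 CPM there and 4.56 CPM in Hypoxia (log2 fold change -5.23, SE 1.39, adjusted p = 0.0223). Its counts were 0.0814 times the expected background in Hypoxia+Nitrate and 1.38 times in Hypoxia. The prostaglandin E2 receptor genes Ptger2 and Ptger3 fell by 2.68 and 2.44 on the log2 scale. Ptger2 was at 0.589 times the background in Hypoxia+Nitrate and 1.63 times in Hypoxia, and Ptger3 at 0.442 times in Hypoxia+Nitrate and 1.02 times in Hypoxia. Ccr2, the receptor for the product of Ccl2, was at -1.17 and did not pass (adjusted p = 0.123).

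Of 11 genes of prostaglandin synthesis and breakdown, 1 rose and 1 fell, shares below those of all genes tested. The higher call was lost without Hypoxia 1, and the lower call without any 1 Hypoxia library. Hpgd, which inactivates prostaglandins, averaged 169 ± 176 CPM in Hypoxia+Nitrate and 5.26 ± 3.64 CPM in Hypoxia, a log2 fold change of 5.01 (SE 1.14, adjusted p = 0.0129). Hpgds, a prostaglandin D synthase, fell by 1.49 on the log2 scale, with counts at 1 times the expected background in Hypoxia+Nitrate and 1.24 times in Hypoxia. Ptgs1, the constitutive cyclooxygenase, was at 1.25 and did not pass (adjusted p = 0.0568). The list's median was 0.19 with TMM and -0.79 with library size alone.

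Other NF-kB target genes rose for 3 and fell for 1 of 19 tested. The 3 higher calls became 1 with RLE or upper-quartile factors, without Hypoxia+Nitrate 4 and without any 1 Hypoxia library, and 0 with library size alone. Gadd45b, a stress-induced inhibitor of cell death signalling, averaged 25.6 ± 10.3 CPM in Hypoxia+Nitrate and 3.74 ± 1.12 CPM in Hypoxia (log2 fold change 2.77, SE 0.467, adjusted p = 0.00917). Sod2, the mitochondrial superoxide dismutase, rose by 1.25 and Ccnd1, cyclin D1, by 1.8. Saa3, an acute phase protein, fell by 3 on the log2 scale, with counts at 0.357 times the background in Hypoxia+Nitrate and 1.20 times in Hypoxia. Of 17 other inflammatory cytokines and chemokines tested, 1 rose and 1 fell, again shares below those of all genes tested. Ccl5, a chemokine of T lymphocytes, rose by 3.84 (SE 0.857), and Lif, a cytokine of the interleukin-6 family, fell by 4.02 on the log2 scale, at 0.2 times the background in Hypoxia+Nitrate and 1.41 times in Hypoxia. Il6 was at 2.49 ± 1.31 CPM in Hypoxia+Nitrate and 2.43 ± 0.843 CPM in Hypoxia and did not pass (adjusted p = 0.972). The medians of these lists were 0.12 and 0.04 with TMM and -0.44 and -0.50 with library size alone.

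Over the 9 lists 25 genes were named by the rule, 18 higher and 7 lower. At most 4 called genes per list are named, so these are not all the calls. None changed sign in any alternative that gave it a value. The 25 were chosen because they were called in these data, so a steady sign is not independent support. Leaving out Hypoxia 1, 2, 3 or 4 left 3, 14, 9 and 8 of the 25 called, in that order. With library size alone 1 of the 25 was called, and likewise 1 without Hypoxia 1 and 2 together. Background subtraction in limma-voom left 20 of the 25 testable and 2 called.

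**Figure D5:**
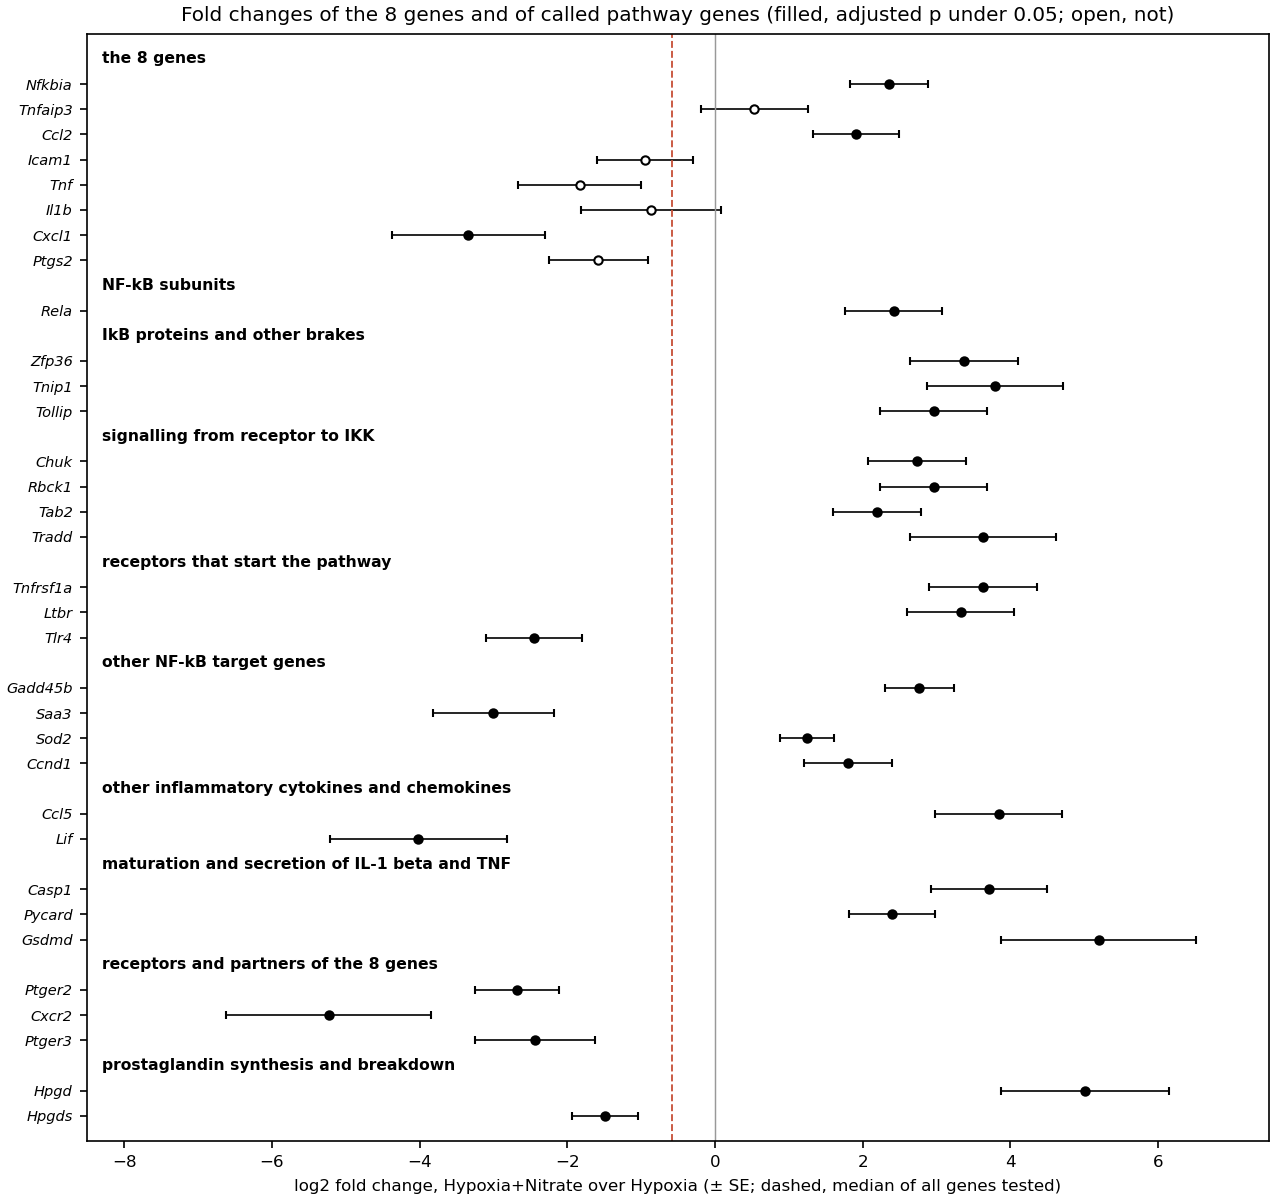
Log2 fold change, Hypoxia+Nitrate over Hypoxia, with its SE, of the 8 genes and of the 25 pathway genes named by the rule, by list; filled points had an edgeR adjusted p under 0.05 and the dashed line is the median of all genes tested, -0.58. Rela, the brakes and the signalling genes lie to the right, and Cxcr2, Ptger2, Ptger3, Tlr4, Saa3, Lif and Hpgds to the left.

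Markers of the cell types that make or meet these mediators moved unevenly between the groups. Their counts in the main test stand against 11.7% of all genes tested called higher and 12.7% called lower. Macrophage and monocyte markers had a median log2 fold change of -0.61, near the -0.58 of all genes tested. Of the 12, 2 rose, C1qa and Lyz2, and 0 fell, and neither call held without Hypoxia 2, 3 or 4. Their summed level was 56.2 to 133 CPM in Hypoxia+Nitrate and 59.5 to 78.1 CPM in Hypoxia. Of the neutrophil markers 8 of 10 could be tested, 0 rose and 2 fell, Ly6g and Cxcr2, with a median of -1.17. Ly6g had a count of 0 in all 4 Hypoxia+Nitrate libraries and was at 1.91 times the expected background in Hypoxia. S100a9 was at 1.47 (adjusted p = 0.319), with counts at 8.67 times the background in Hypoxia+Nitrate and 1.3 times in Hypoxia. Ngp was at 0.50 (edgeR adjusted p = 0.642). The 2 untested markers, S100a8 and Retnlg, were at 1.97 and 3.19 times the background in Hypoxia+Nitrate and 0.36 and 0.744 times in Hypoxia. The 8 tested markers summed to 8.49 to 19.9 CPM in Hypoxia+Nitrate and 26.1 to 34.0 CPM in Hypoxia. The 2 lower calls became 1 without Hypoxia 1, 3 or 4 and 0 without Hypoxia 2. Without the filter on low counts the median of all 10 was -0.71, and that of all genes tested -1.41. Endothelial markers had a median of -0.24. Of the 10, 2 fell and 0 rose. Kdr was at 0.33 times the background in Hypoxia+Nitrate and 1.14 times in Hypoxia, and Tie1 at 1.12 times in Hypoxia+Nitrate and 1.44 times in Hypoxia. Pecam1, at 11.3 times the background in Hypoxia+Nitrate and 2.45 times in Hypoxia, had a log2 fold change of 0.96 and did not pass (adjusted p = 0.147). The endothelial list summed to 36.9 to 144 CPM in Hypoxia+Nitrate and 83.3 to 102 CPM in Hypoxia. Of 10 fibroblast and smooth muscle markers 5 rose, Acta2, Myh11, Tagln and Des of smooth muscle and Dcn of fibroblasts. The other 5, all of fibroblasts, were at -0.13 to 0.53 and did not pass. The list summed to 1310 to 2500 CPM in Hypoxia+Nitrate and 135 to 460 CPM in Hypoxia. T and B lymphocyte markers rose for 2 of 10 (98.9 to 294 CPM in Hypoxia+Nitrate and 67.8 to 81.9 CPM in Hypoxia). The 5 calls became 0 without Hypoxia 1 or 4 and 1 without Hypoxia 3, and the 2 lymphocyte calls became 1 without any 1 Hypoxia library. The part of these cell types in the results for the 8 genes was not tested.

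The protein-coding genes whose log2 CPM was most like that of each gene over the 8 libraries were sought among 14486 or 14487 candidates. For Nfkbia they were Bok (Pearson r = 0.994) and Pop5 (0.993), for Tnfaip3 Ugt1a1 (0.989) and Pkp1 (0.987), and for Ccl2 Camk1 (0.985) and Acad10 (0.983). For Cxcl1 they were Gprin1 (0.993) and Lamb2 (0.983), for Tnf Sftpb (0.972) and Sox17 (0.967), and for Ptgs2 Il1rl2 (0.983) and Pusl1 (0.983). Il1b was most like Scml2 (0.959) and Ldb2 (0.944), and Icam1 was most like Pms2 (0.963) and Slc10a7 (0.955). Within the 8 genes, Icam1 and Ptgs2 had the highest correlation, at 0.905, and Nfkbia and Tnf the lowest, at -0.872. These correlations describe 8 libraries that share their scaling and background.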

How the data were processed

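RNA from small intestine was sequenced in 8 libraries, which sample titles assign to Hypoxia+Nitrate (4) and Hypoxia (4). Per the labels' protocols, RNA came from TRIzol extraction, in wording that mentions islets, and the library kit was stranded. The submitters' processing notes list HISAT, featureCounts (1.5.0-p3), DESeq (1.8.3) and GRCm38, without a strand setting or annotation. The counts used are whole numbers of reads per gene as deposited by the authors, and 8 per-sample tables equalled the joint table.

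The edgeR package (4.0.16, R 4.3.3) tested the counts by quasi-likelihood after filterByExpr (at least 10 counts, 15 in total) and TMM scaling. Standard errors come from the fold change and its F statistic. Alternatives used limma (3.58.1) and DESeq2 (1.42.0), other scalings and filters, a replicate block and fits without single libraries. Background was the summed count of 1472 autosomal receptor genes per kb of exonic sequence unique to 1 gene in GENCODE M21, multiplied by a gene's own unique length. Pathway genes named were at most 4 called genes with the lowest p per list. Relb, Nfkb1, Nfkb2, Rel, Il1r1, Il1rap, Nlrp3, Ccr2, Ptgs1, Il6, S100a8, S100a9, Retnlg, Ngp and Pecam1 fall outside that rule. They were chosen after their values were seen. Genes most alike had a mean log2 CPM of at least 1, without predicted gene models. The edgeR and limma-voom fits were tested on simulated counts with known changes in a set of genes. Those counts held no group difference in background or mitochondrial share, so that test does not cover such differences. The 8 genes, lists and tests were chosen with earlier results of these data known. Precision rests on 4 libraries per group and total counts from 5345377 to 63943036.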

Additional observations from a re-analysis of the deposited data

Results flagged for a closer look

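Ccl2 in Hypoxia 3, at 8.38 CPM, stood far from the other Hypoxia libraries, which were at 2.47, 3.42 and 2.71 CPM. Its gap to the nearest of them took 0.839 of the group's range, above Dixon's 95% critical value for 4 samples. It was the only such library among 16 groups of 4 that were looked at, and chance gives about 1 in 20. Without Hypoxia 3 the log2 fold change of Ccl2 was 2.44 (SE 0.621, edgeR adjusted p = 0.0371).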

How the results depend on the processing

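Nfkbia, Ccl2, Icam1, Tnf, Il1b, Cxcl1 and Ptgs2 kept their direction in every alternative that gave a value, with Nfkbia called in 15 of 19, Ccl2 in 11 of 19 and Cxcl1 in 9 of 18. Background subtraction left 3 of the 8 genes testable. Tnfaip3 turned with library size alone (-1.16), in limma-voom (-0.27), after background subtraction (-0.32), without Hypoxia+Nitrate 1 and 4 (-0.97) and without Hypoxia+Nitrate 1 (-0.30, the lowest with 1 library left out, the highest being 1.09), and the cause was not tested. Genes called numbered 8653 in the main test, 1800 with library size alone, 16708 with no filter, 14689 in DESeq2, 15818 in limma-voom, 2016 after background subtraction, 4227 without Hypoxia 1 and 2, and 1932 to 22454 with 1 library left out. The share of calls that were higher was 48.1% by TMM, 35.0% by RLE, 34.4% by upper quartile and 13.5% by library size. Of the 8 genes, 2 were called higher in the main test, where 11.7% of all genes tested were higher. It was 1 with upper-quartile factors (8.03% of all genes) and with nuclear protein-coding genes alone (15.1%). It was 0 with library size alone (0.686%), after background subtraction (4.25%) and without Hypoxia 1 and 2 (1.51%). With 1 library left out it was 0 to 2, where 1.95% to 14.3% of all genes were higher. The lower call of 1 gene became 3 in DESeq2 and 2 in limma-voom, where 28.3% and 33.7% of all genes tested were lower. It became 0 with library size alone (4.39% of all genes) and after background subtraction (9.2%). It was also 0 without Hypoxia+Nitrate 1 and 4 (17.6%) and without Hypoxia 1 and 2 (8.74%). With 1 library left out it was 0 to 3, where 3.61% to 39.5% of all genes were lower. The 3 were without Hypoxia+Nitrate 2, where 39.5% of all genes were lower. The Nfkbia to Ccl2 ratio turned without Hypoxia+Nitrate 1 (-0.11), Hypoxia+Nitrate 4 (-0.07) and Hypoxia 3 (-0.06). Olfactory or other receptor genes alone as background, chosen after seeing the data, gave 47.6 and 43.4 times for Nfkbia in Hypoxia+Nitrate and 3.86 and 4.03 in Hypoxia. The median receptor gene gave no value in Hypoxia+Nitrate, where it had a count of 0 in some libraries.

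Replicate numbers showed no clear pairing of the samples: deviations of same-numbered samples correlated at 0.051, -0.18, 0.18 and -0.050. A pairing is not excluded, since library composition varied widely within each group. With a replicate block 4791 genes were called, 6.14% of all genes tested higher and 7.38% lower. Of the 8 genes 2 were higher and 0 lower there. Cxcl1 did not pass (-3.62, edgeR adjusted p = 0.0977) and Tnfaip3 was at -0.15. Of the 25 named pathway genes 13 were called there, of the signalling genes 2 of 17, of the NF-kB subunits 0 of 5 and of the enterocyte markers 0 of 10. Hypoxia total counts as low as 5345377 and counts near background limit Tnf, Il1b, Cxcl1, Icam1 and Ptgs2.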
